A study of Homo sapiens with 16 samples.

Results

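The genes described here write and erase methyl groups on the lysines of histone tails, and 53 of them were found among the 13148 genes of the table. They were picked out of the table by symbol. There were 16 lysine demethylases named KDM, 26 methyltransferases of the MLL, SETD, EHMT, SUV39H, SUV420H, NSD (with WHSC1 and WHSC1L1) and EZH families, and 11 PRDM genes. The label of histone enzymes is broader than what these genes are known for: SETD3 acts on actin, SETD6 on a subunit of NF-kappaB, MLL5 is not known as an efficient enzyme, and for several PRDM proteins no histone methyltransferase activity is established.

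The cells were 293S, an established human line of the HEK293 family, grown as an adherent layer. They had received 1 mM sodium arsenite for 30 minutes or no treatment, here called the control. Each treatment is represented by 1 sucrose gradient of 8 fractions and each fraction by 1 RNA-seq library, so there were 16 libraries and no replicate. No difference below therefore has a replicate check, no p-value is given, and the groups cannot be compared against a spread between replicates. The deposited values are shares: for each gene and gradient, the 8 values give the part of its total found in each fraction and sum to 1. They hold neither the level of an mRNA nor the read depth behind a share, so the identity of the line could not be checked against marker genes and no counting error can be attached. None of the 53 genes was listed at 0 in any library, whereas 1523 genes of the table were, and the lowest single share of a member was 0.241%.

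A sucrose gradient spreads RNA by the size of the particle it travels in, and mRNAs with many ribosomes travel far. Arsenite is an oxidative stressor under which cells phosphorylate eIF2 alpha and largely stop starting new rounds of translation. Methyl marks on histone lysines differ in what they go with: those on H3K4 and H3K36 are found at active genes, those on H3K9, H3K27 and H4K20 mostly at silent or compacted chromatin. SET-domain enzymes add the marks, FAD-dependent and Jumonji (JmjC) enzymes remove them, and PRDM proteins join a SET-like domain to zinc fingers that bind DNA. Many of these enzymes act as the catalytic part of a large complex, and several have long coding sequences.

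Each profile was reduced to a position, the mean of the fraction numbers weighted by the gene's shares. Subtracting the control position from the arsenite position gives the shift. Over all genes the median shift was −1.46 fractions, and all 53 members had a negative shift, as had 98.3% of all genes. The relative shift is the shift minus that median. Moved higher or lower is used of a gene whose relative shift reached 0.5 fractions either way, provided that the sign did not change on omitting any 1 fraction number from the pair of gradients. A member that moved higher on the deposited scale was therefore displaced less towards low fraction numbers than the typical mRNA, since all 53 shifts were negative. Whether fraction 1 is the top or the bottom of the gradient is not in the labels. How fractions were weighted against each other is also unstated. When the libraries were rescaled by median-of-ratios size factors, so that the typical gene was equal across them, the median shift of all genes was −0.23.

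On the deposited scale the median methyltransferase and PRDM mRNA was displaced less with arsenite than the typical mRNA, and 23 of 26 and 9 of 11 of these genes had relative shifts above 0, against 5 of 16 demethylases. Of the 53 members 21 moved higher (39.6%), against 23.6% of all genes, and 3 moved lower (5.66%), against 24.0% of all genes. The remaining 29 met neither rule. The median relative shift of the members was 0.40, with quartiles of −0.13 and 0.77, against quartiles of −0.52 and 0.48 over all genes. It was 12 of 26 methyltransferases and 7 of 11 PRDM genes that moved higher, with medians of 0.48 and 0.68, and among these 37 genes EHMT2 was the 1 that moved lower. The 16 demethylases had a median of −0.22, and they split into 2 that moved higher, 2 that moved lower and 12 that did neither. Their median depends on fraction 7 and was 0.13 without it. The 3 members that moved lower were KDM1A, KDM4A and EHMT2.

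**Figure D1:**
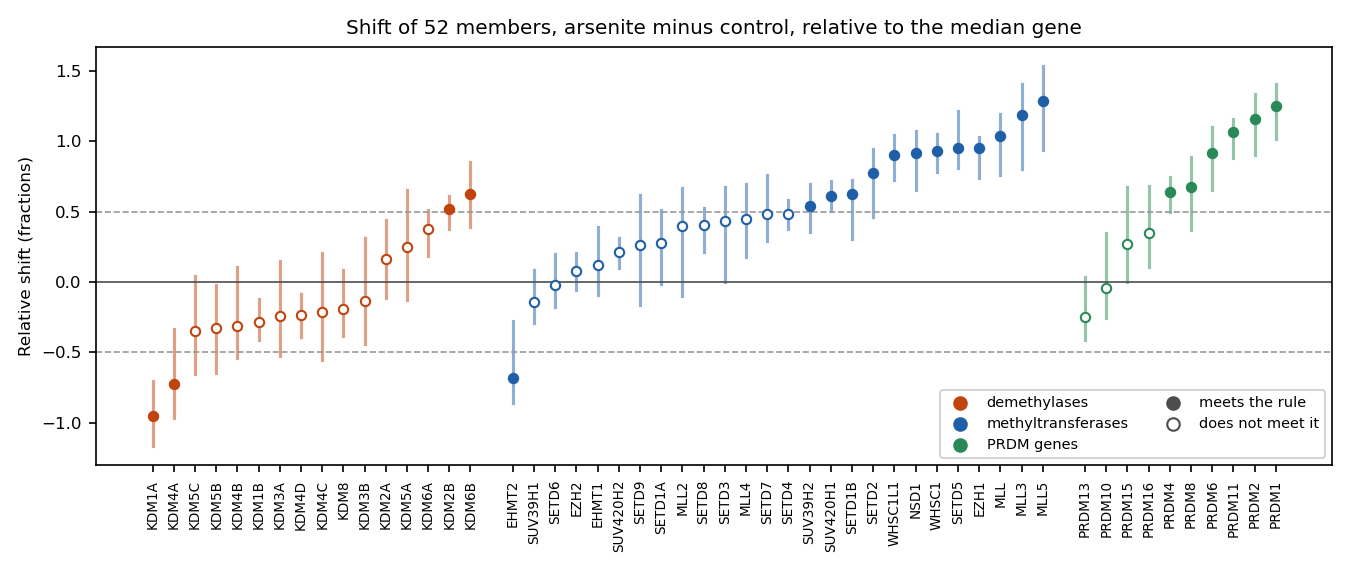
Relative shift in fractions (arsenite minus control, relative to the median gene) of 52 members, grouped as demethylases, methyltransferases and PRDM genes. Filled points meet the rule, vertical bars span the values when each fraction is left out in turn, and dashed lines mark 0.5 fractions in either direction. Filled points above the upper line are 2 demethylases, 12 methyltransferases and 6 PRDM genes, and EHMT2 is the 1 filled point below the lower line outside the demethylases.

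The direction of the shift itself depends on the scaling. With size factors the median shift was −0.42 fractions for demethylases, 0.37 for methyltransferases and 0.63 for PRDM genes, against −0.23 for all genes. The shift was positive for 28 of the 53 members and for 5414 of the 13148 genes. On that scale 23 members moved higher and 6 moved lower, against 28.7% and 26.4% of all genes. The same 3 genes were among those that moved lower, joined by KDM3A, KDM5B and KDM5C. Of the 21 that moved higher, 19 did so with size factors too, the exceptions being KDM6B and SETD2. The relative shift had the opposite sign with size factors for 7 members, KDM2A, KDM5A, MLL2, MLL4, PRDM13, PRDM15 and SETD9, none of which met the rule. The number that moved lower was also 8 without fraction 5 and 1 without fraction 7, settings for which no share of all genes is given.

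The classes differed in where they lay in untreated cells more than in where they lay with arsenite. Demethylases had a median position of 3.62 with arsenite and 5.32 in the control. Methyltransferases had one of 3.59 with arsenite and 4.57 in the control, and PRDM genes one of 3.68 with arsenite and 4.22 in the control. Over all genes the medians were 3.10 with arsenite and 4.54 in the control. All 16 demethylases lay above the median gene with arsenite, and 15 did in the control. Of the 26 methyltransferases 21 lay above it with arsenite and 15 in the control, and of the 11 PRDM genes 9 did with arsenite and 4 in the control.

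**Figure D2:**
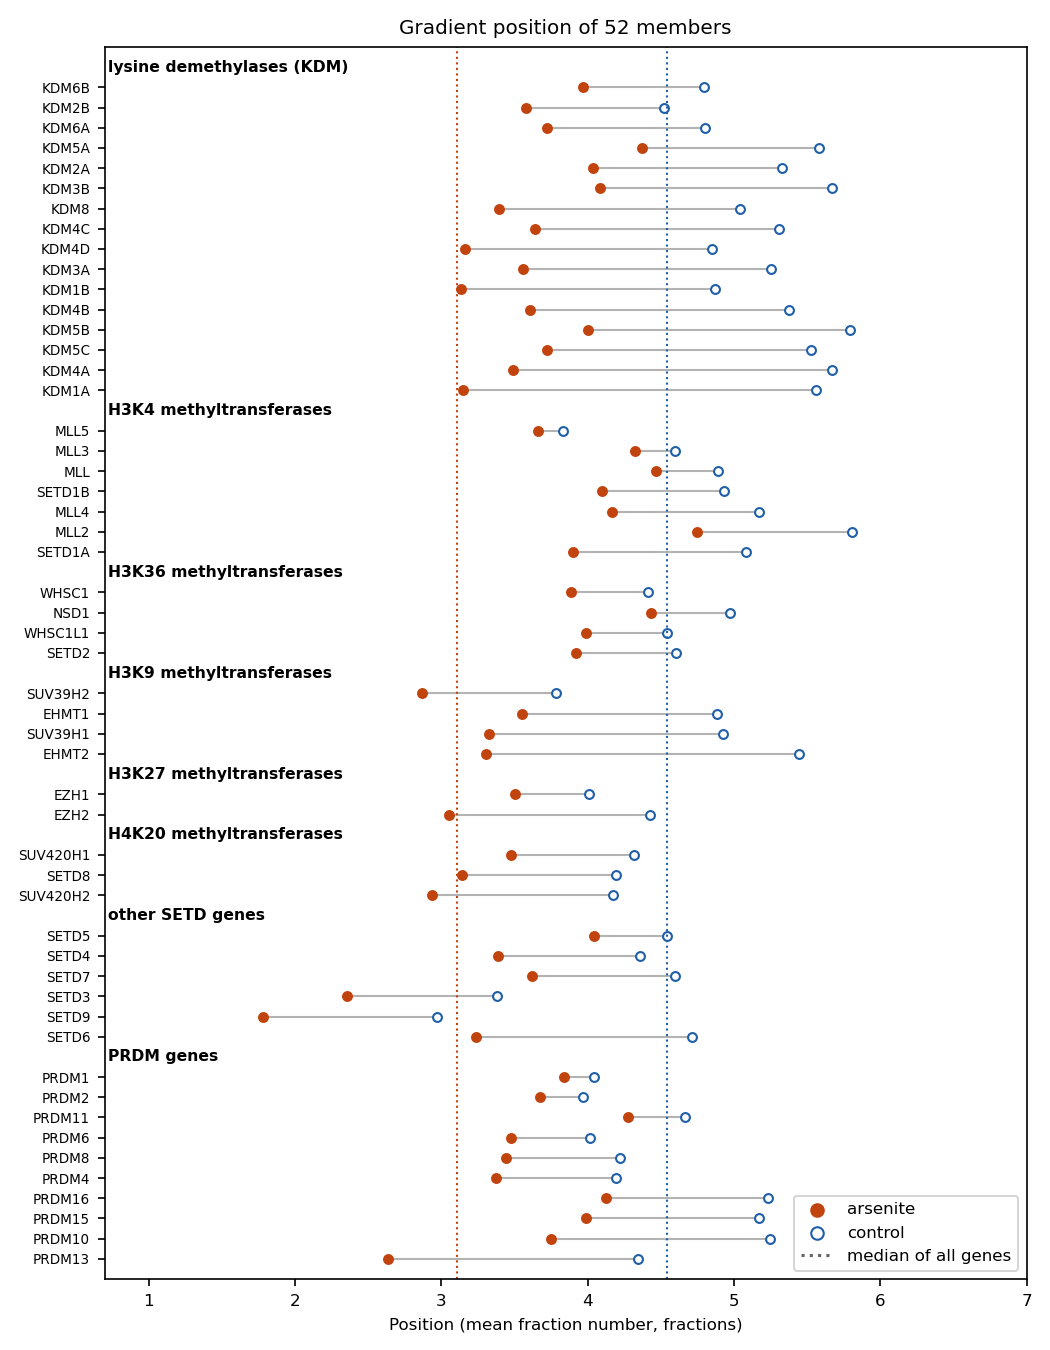
Position (mean fraction number) of 52 members with arsenite (filled) and in the control (open), by role, with dotted lines at the median of all genes (3.10 with arsenite and 4.54 in the control). Every filled point lies left of its open point; 15 of 16 demethylases have their open point right of the control median, and the shortest spans belong to MLL5, PRDM1, MLL3 and PRDM2.

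In the median profiles the demethylases stood apart in fraction 7 of the control gradient. Their median share in fraction 7 was 2.19% with arsenite, as was that of methyltransferases (2.19%). In the control it was 28.5% for demethylases, against 10.1% for methyltransferases, 9.78% for PRDM genes and 7.76% for all genes. Fraction 7 was the largest control fraction of 9 of the 16 demethylases, against 14.9% of all genes. With arsenite the demethylases were most often largest in fraction 3 (10 of 16), and the methyltransferases in fractions 3 and 5 (10 and 9 of 26). Fraction 3 was also the most frequent largest fraction of the PRDM genes (54.5%) and of all genes (37.2%). Fraction 5 was the largest with arsenite for 11 of the 53 members and for 1108 of the 13148 genes. The median share in fractions 5 to 8 was 28.0% with arsenite and 66.9% in the control for demethylases, and 26.7% with arsenite and 49.4% in the control for methyltransferases. For PRDM genes it was 26.5% with arsenite and 44.4% in the control, and for all genes 16.4% with arsenite and 53.9% in the control. Without fraction 7 the median relative shift of the demethylases was 0.13, the opposite direction.

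**Figure D3:**
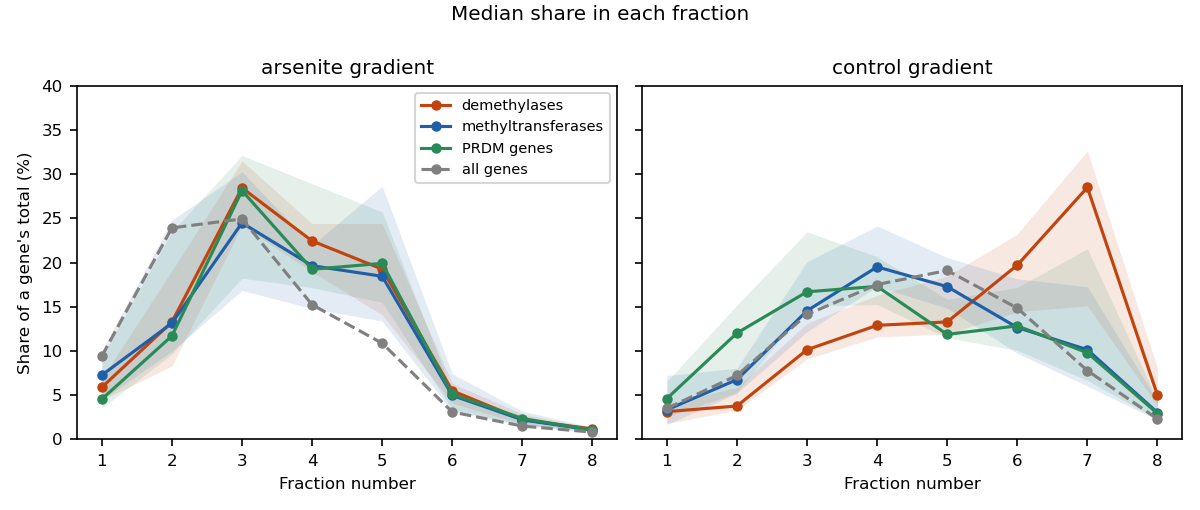
Median share of a gene's total (%) in fractions 1 to 8 of the arsenite and the control gradient for demethylases, methyltransferases, PRDM genes and all genes, with shading over the quartiles of the 3 classes. With arsenite the 3 classes lie close together, above all genes in fractions 4 and 5, and in the control the demethylase line peaks at 28.5% in fraction 7.

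Among the demethylases, KDM1A (LSD1), the FAD-dependent enzyme that removes H3K4 methylation within the CoREST complex, was displaced most. KDM1A had shares of 6.99, 27, 34.6, 15.6, 10.2, 3.09, 1.84 and 0.711% in fractions 1 to 8 with arsenite, against 3.33, 2.67, 6.66, 8.73, 15.1, 31.4, 28.1 and 3.94% in the control. Fractions 2 and 3 held most of it with arsenite, and fractions 6 and 7 in the control. Its position was 3.15 with arsenite and 5.56 in the control, its relative shift was −0.95, and it ranged from −1.17 to −0.71 when fractions were left out. Its share in fractions 5 to 8 was 15.8% with arsenite, against 78.6% in the control, the highest of the 16 demethylases. The related KDM1B lay at 3.13 with arsenite and 4.87 in the control, and with a relative shift of −0.28 it did not meet the rule.

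KDM4A, a JmjC enzyme for methylated H3K9 and H3K36, moved lower, at 3.49 with arsenite and 5.67 in the control (relative shift −0.72, but −0.34 without fraction 7). Its relatives KDM4B (−0.31), KDM4C (−0.21) and KDM4D (−0.23) did not meet the rule. KDM4D has close relatives in the genome, so its reads could be shared. KDM3A and KDM3B, which act on H3K9, had relative shifts of −0.24 and −0.13 (−0.70 and −0.47 with size factors). KDM8, a JmjC protein whose histone activity is disputed, had one of −0.19.

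The KDM5 enzymes remove H3K4 methylation, and KDM5B lay second only to the row named MLL2 in untreated cells. The shares of KDM5B in fractions 1 to 8 were 5.98, 9.72, 21.2, 25.3, 24.2, 7.65, 4.2 and 1.74% with arsenite and 2.89, 2.94, 9.54, 11, 11, 12.5, 33.7 and 16.6% in the control. Its position was 4.01 with arsenite and 5.79 in the control. The relative shift was −0.33, which did not meet the rule, and it was −0.76 with size factors, which did. For KDM5C the relative shift was −0.35, and −0.57 with size factors. KDM5A lay at 4.37 with arsenite and 5.58 in the control. Fractions 5 to 8 held 55.6% of it with arsenite, against 71.9% in the control, and it was the 1 demethylase with over 50% there with arsenite. Its relative shift was 0.25 (−0.14 with size factors).

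The 2 demethylases that moved higher were KDM6B and KDM2B. KDM6B (JMJD3), which removes H3K27 methylation, had the highest relative shift of the class. KDM6B had shares of 2.19, 6.98, 31.2, 24, 27.4, 5.28, 1.69 and 1.32% in fractions 1 to 8 with arsenite, against 1.45, 3.81, 18.9, 19.8, 20.8, 19.5, 12.6 and 3.17% in the control. Fractions 3 to 5 held most of it with arsenite, and fractions 3 to 6 in the control. It lay at 3.97 with arsenite and 4.79 in the control (relative shift 0.63), but with size factors the value was 0.39, under the threshold, and it fell short without fraction 1 or 5 too. KDM6A (UTX), its X-linked relative, had a control profile that was nearly flat between fractions 3 and 7. The shares of KDM6A in fractions 1 to 8 were 6.11, 12.7, 26.2, 25.8, 20.5, 5.48, 2.27 and 0.921% with arsenite and 4.91, 6.03, 15.2, 17.6, 17.7, 16.6, 16.5 and 5.38% in the control. At 3.72 with arsenite and 4.80 in the control, with a relative shift of 0.38, it did not meet the rule. KDM2B moved higher by a small margin (0.52) and lost the call on omitting fraction 1, 4, 5, 6 or 7. For KDM2A the relative shift was 0.16, and −0.16 with size factors.

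The 7 members sorted here as H3K4 methyltransferases, with MLL5 but without SETD7, had a median relative shift of 0.62. None of the 7 moved lower and 4 moved higher, against 24.0% and 23.6% of all genes. With arsenite 3 of the 7 had over 50% of their total in fractions 5 to 8, as had 2.34% of all genes. MLL (KMT2A), the founder of the family and the target of leukaemia translocations, is an example. MLL had shares of 5.48, 7.78, 7.25, 19.7, 42.5, 10.1, 5.31 and 1.92% in fractions 1 to 8 with arsenite, against 4.91, 5.19, 12.4, 25.4, 14.6, 9.22, 19.7 and 8.61% in the control. Fraction 5 alone held 42.5% with arsenite, against 14.6% in the control. Its share in fractions 5 to 8 was 59.8% with arsenite and 52.1% in the control. MLL and MLL3 were the only 2 of the 53 members in which this share was higher with arsenite, as it was for 563 of the 13148 genes. MLL lay at 4.47 with arsenite and 4.89 in the control, with a relative shift of 1.04 (0.59 with size factors).

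MLL3 (KMT2C), a large enzyme of enhancers, lay at 4.32 with arsenite and 4.60 in the control, a relative shift of 1.18. It has partial copies elsewhere in the genome, so its reads could be shared. MLL5 (KMT2E) had the highest relative shift of all members, 1.28. The shares of MLL5 in fractions 1 to 8 were 11.6, 11.5, 21.6, 21.2, 26.3, 4.68, 2.33 and 0.753% with arsenite and 16, 11.8, 13.9, 19.6, 20.6, 8.79, 6.26 and 2.99% in the control. The profiles of both gradients peaked in fraction 5, and the positions were 3.66 with arsenite and 3.83 in the control. SETD1B also moved higher (0.62), with a value of 0.31 without fraction 5. By the 50% point of its profiles its value was 0.99, but the sign was not kept. The symbols MLL2 and MLL4 have each been used for both KMT2B and KMT2D, so which of these 2 H3K4 methyltransferases each row holds was not settled. The row named MLL2 lay furthest along of the members in both gradients, at 4.75 with arsenite and 5.80 in the control, and had 60.7% of its total in arsenite fraction 5, against 20.4% in control fraction 5. Its relative shift was 0.40 and that of the row named MLL4 was 0.45, both negative with size factors (−0.40 and −0.18). SETD1A, the catalytic subunit of a COMPASS complex, had the lowest value of the group, 0.28 (0.06 with size factors). SETD1A had shares of 3.32, 10.0, 28.8, 23.1, 25.4, 5.92, 2.17 and 1.3% in fractions 1 to 8 with arsenite, against 1.16, 3.66, 13.9, 17, 18.7, 26.3, 15.6 and 3.6% in the control. Its largest fraction was fraction 3 with arsenite and fraction 6 in the control.

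All 4 members sorted here as H3K36 methyltransferases moved higher, as did 23.6% of all genes. Lysine methyltransferases outside the symbol rule are given further below. The relative shifts of these 4 members lay close together, from 0.77 to 0.93. SETD2, which adds the third methyl group behind elongating RNA polymerase II, had the lowest of them, 0.77. The shares of SETD2 in fractions 1 to 8 were 11.7, 11.5, 14.5, 18.3, 30.4, 8.27, 3.92 and 1.43% with arsenite and 9.33, 7.32, 14.8, 19.4, 14.6, 8.71, 17.8 and 8.08% in the control. Its arsenite shares were highest in fraction 5, and its control shares in fractions 4 and 7. It lay at 3.92 with arsenite and 4.60 in the control. With size factors its relative shift was 0.71, but its sign changed on omitting a fraction, and at the deposited scale it was 0.46 without fraction 5. Without fraction 6 it was 0.53, but the sign was not kept on omitting a further fraction. WHSC1 (NSD2, known from a translocation in multiple myeloma) had the highest, 0.93. WHSC1 had shares of 4.3, 11.4, 27.1, 23, 22.8, 6.76, 3.26 and 1.39% in fractions 1 to 8 with arsenite, against 3.48, 8.11, 22.7, 23.5, 14.1, 11.6, 12.7 and 3.75% in the control. Fractions 3 to 5 held most of it with arsenite. NSD1, the gene of Sotos syndrome, lay at 4.43 with arsenite and 4.97 in the control (0.92) and had 56.6% of its total in fractions 5 to 8 with arsenite, against 58.4% in the control. WHSC1L1 (NSD3) lay at 3.99 with arsenite and 4.54 in the control (0.90). NSD1, WHSC1 and WHSC1L1 met the rule under size factors, the 50% point and with each fraction left out.

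The H3K9 methyltransferases were mixed. EHMT2 (G9a), which makes mono- and dimethylated H3K9 in euchromatin, moved lower. The shares of EHMT2 in fractions 1 to 8 were 1.61, 29.9, 29.7, 21.6, 11.8, 3.26, 1.29 and 0.708% with arsenite and 0.809, 6.88, 10.1, 11.6, 10.1, 25.3, 30.9 and 4.3% in the control. Fractions 2 to 4 held most of it with arsenite, and fractions 6 and 7 in the control. It lay at 3.31 with arsenite and 5.44 in the control, a relative shift of −0.68. Without fraction 7 the value was −0.28, under the threshold. Without fraction 6 it was −0.77, but the sign was not kept on omitting a further fraction. Its partner EHMT1 (GLP) had a relative shift of 0.12. SUV39H1, which trimethylates H3K9 at pericentric heterochromatin, lay near the median gene, at −0.14. SUV39H1 had shares of 4.9, 27.9, 26, 21.2, 13.6, 4.29, 1.51 and 0.60% in fractions 1 to 8 with arsenite, against 0.583, 9.01, 12.1, 11.6, 22.4, 33.3, 8.76 and 2.28% in the control. Its largest fraction was fraction 2 with arsenite and fraction 6 in the control. SUV39H2, its relative, started lower. The shares of SUV39H2 in fractions 1 to 8 were 23.4, 20.6, 25.8, 14.4, 10.9, 2.55, 1.47 and 0.862% with arsenite and 8.67, 10.8, 20.8, 31.5, 16.8, 6.06, 3.67 and 1.67% in the control. It lay at 2.87 with arsenite and 3.78 in the control and just met the rule (0.54), but not without fraction 2, 3, 6 or 7. SUV39H2 and 4 other members (KDM2B, KDM5A, MLL5 and WHSC1L1) have exons that overlap a protein-coding gene on the opposite strand in the annotation. The treatment of strand is not given, so reads from the overlap cannot be told apart from those of that gene. The extent of the overlaps was not measured. Exons of KDM4A and MLL overlap another protein-coding gene on the same strand.

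EZH1 and EZH2 are the alternative catalytic subunits of PRC2, which methylates H3K27. EZH2, the form of dividing cells, lay close to the median gene. EZH2 had shares of 12.8, 29.4, 24.7, 14.4, 13.3, 3.21, 1.42 and 0.815% in fractions 1 to 8 with arsenite, against 7.65, 7.36, 18.9, 18.3, 16.4, 14.1, 14.2 and 3.0% in the control. It lay at 3.05 with arsenite and 4.43 in the control, with a relative shift of 0.08. EZH1, the form that prevails in resting cells, moved higher (0.95). The shares of EZH1 in fractions 1 to 8 were 7.3, 9.96, 37, 25, 15.1, 3.35, 1.6 and 0.731% with arsenite and 3.15, 6.17, 41.5, 18.2, 9.96, 10.7, 8.25 and 2.05% in the control. Fraction 3 was its largest fraction in both gradients, and its position was 3.51 with arsenite and 4.01 in the control.

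The series as a whole concerns Argonaute 2, which microRNAs guide to mRNAs by their seed (bases 2 to 8, in capitals below). EZH2 is a known target of miR-101 and miR-26a, and KDM1A of miR-137. These mature human microRNAs, from RefSeq (GRCh38.p14), are shown with the matches that were found in the 3' UTRs of those mRNAs annotated in GENCODE release 29, with the 7 bases that pair with the seed in capitals.
miR-101-3p: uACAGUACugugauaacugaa
EZH2, first miR-101 match: cttcaggaacctcgaGTACTGTg
EZH2, second miR-101 match: ttctgaatttgcaaaGTACTGTa
miR-26a-5p: uUCAAGUAauccaggauaggcu
EZH2, miR-26a match: actttgaataaagaaTACTTGAa
miR-137-3p: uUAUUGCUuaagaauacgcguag
KDM1A, miR-137 match: aaggaaggctcttctAGCAATAc

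The motifs searched were GTACTGT for miR-101, TACTTGA for miR-26a and AGCAATA for miR-137, on the mRNA strand of the 3' UTR only. The miR-101 motif was found in 7 of 51 members with an annotated transcript (13.7%) and in 11.3% of all annotated genes. The 7 were EZH2, KDM3B, KDM5A, KDM6B, NSD1, SETD5 and SUV420H1, and their median relative shift was 0.61, against 0.36 for the 44 without a match. The miR-26a motif was in 6 members (11.8%, and 12.8% of all genes), with a median of 0.98, against 0.35 without one. The miR-137 motif was in 7 (13.7%, and 12.1% of all genes), with a median of −0.02, against 0.42 without one. Over all genes the medians with a match were 0.25, 0.22 and 0.23, against −0.04 without one for each of the 3 motifs. Genes with a match also had longer 3' UTRs, with a median of 2932 nt against 993.5 nt for miR-101 over all genes, and the part of UTR length was not tested. EZH2, with matches for miR-101 and miR-26a, had a relative shift of 0.08, and KDM1A, with a match for miR-137, one of −0.95.

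The H4K20 methyltransferases had relative shifts between 0.22 and 0.61. SETD8 (KMT5A), which makes the monomethyl mark and is tied to the cell cycle, lay at 3.14 with arsenite and 4.19 in the control. SETD8 had shares of 6.9, 26.1, 38.2, 12.5, 10.7, 3.08, 1.59 and 0.981% in fractions 1 to 8 with arsenite, against 2.5, 6.41, 22.2, 33.1, 17.7, 12, 3.98 and 2.11% in the control. Its relative shift was 0.40, under the threshold, and 0.61 with size factors, which met the rule. Pseudogene copies of SETD8 could share its reads. SUV420H1, 1 of the 2 enzymes that build on that mark, moved higher (0.61). The shares of SUV420H1 in fractions 1 to 8 were 9.72, 16.2, 30.5, 16.5, 19.5, 4.39, 2.2 and 1.1% with arsenite and 5.82, 5.71, 18.9, 25.1, 22.6, 11.8, 7.41 and 2.7% in the control. Its relative SUV420H2 did not meet the rule (0.22). SUV420H2 had shares of 8.07, 40.9, 21.5, 16.7, 7.74, 3.03, 1.17 and 0.897% in fractions 1 to 8 with arsenite, against 0.692, 17.4, 17.4, 23.5, 17.8, 16.3, 5.93 and 0.928% in the control. Its value with size factors was 0.55, past the threshold.

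Of the 6 other SETD genes 1 moved higher, SETD5 (0.95), against 23.6% of all genes. The shares of SETD5 in fractions 1 to 8 were 4.15, 6.88, 24.3, 25.7, 28.8, 6.05, 2.75 and 1.35% with arsenite and 2.28, 5.24, 15.1, 29.1, 25.3, 10.9, 8.83 and 3.33% in the control. SETD5, a chromatin regulator whose loss causes intellectual disability, lay at 4.04 with arsenite and 4.54 in the control. SETD6 had the lowest relative shift of this group, −0.02. SETD6 had shares of 9.63, 20.9, 33.9, 16, 14.5, 2.74, 1.55 and 0.861% in fractions 1 to 8 with arsenite, against 1.59, 4.8, 20.6, 13.7, 23.6, 27.2, 5.88 and 2.62% in the control. SETD7, a monomethyltransferase of H3K4 and of many other proteins, and SETD4 lay just below the threshold, at 0.48 and 0.48. For SETD3 and SETD9 fraction 1 was the largest in both gradients. It held 33.1% of SETD3 with arsenite and 28.5% in the control. It held 51.4% of SETD9 with arsenite and 26.4% in the control. SETD9 lay at 1.78 with arsenite and 2.97 in the control, and had the lowest position of the 53 members with arsenite.

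Of the 11 PRDM genes 7 moved higher and none lower, against 23.6% and 24.0% of all genes. PRDM1 (Blimp-1), a repressor that directs plasma cell and germ cell fate, had the highest relative shift of them, 1.25. The shares of PRDM1 in fractions 1 to 8 were 11.9, 11.7, 8.82, 31.9, 25.8, 5.35, 2.7 and 1.81% with arsenite and 4.58, 14.4, 22.5, 21.8, 16.6, 10.2, 7.01 and 2.89% in the control. It lay at 3.84 with arsenite and 4.04 in the control, a shift of −0.21 fractions. PRDM2 (RIZ), an H3K9 methyltransferase, had fraction 3 as its largest in both gradients and lay at 3.68 with arsenite and 3.97 in the control (1.16). PRDM11 (1.06), PRDM6 (0.91), PRDM8 (0.68) and PRDM4 (0.64) also moved higher. PRDM4 fell just short of the threshold without fraction 1 (0.49) or 7 (0.499), and PRDM8 without fraction 1 (0.37). Without fraction 2 PRDM8 had 0.55, but the sign was not kept on omitting a further fraction.

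The 4 other PRDM genes did not meet the rule. PRDM10, PRDM15 and PRDM16, the last a regulator of brown fat, were largest in fraction 7 of the control, with 28.7%, 28.4% and 28.1% of their totals there. Their relative shifts were −0.04, 0.27 and 0.35. PRDM13, a regulator of neurons, had the lowest value of the group, −0.25 (0.23 with size factors). PRDM13 had shares of 14.5, 42.8, 22.7, 11.9, 4.15, 2.08, 1.1 and 0.873% in fractions 1 to 8 with arsenite, against 7.15, 12, 8.77, 16.9, 30.7, 17.8, 4.67 and 2.03% in the control. Its share in fractions 5 to 8 was 8.2% with arsenite and 55.1% in the control.

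Position with arsenite followed coding length among the members. The Spearman correlation of coding length with position was 0.81 with arsenite and 0.41 in the control over 51 members, and over 13036 genes it was 0.67 with arsenite and 0.38 in the control. The points are genes measured in the same 16 libraries and are not replicates. Among the demethylases alone it was 0.85 with arsenite and 0.27 in the control (16 genes). MLL3, with 14736 nt of coding sequence, lay at 4.32 with arsenite and 4.60 in the control, and MLL, with 11910 nt, at 4.47 with arsenite and 4.89 in the control. SETD9, with 900 nt the shortest, lay at 1.78 with arsenite and 2.97 in the control. The median coding length was 3728 nt for demethylases, 3146 nt for methyltransferases and 2478 nt for PRDM genes, against 1431 nt for all genes. An ATG lay upstream of the start codon in 70.6% of 51 members (36 genes) and in 54.7% of 12767 genes with an annotated 5' UTR. Reading frame was not considered. The median 5' UTR was 241 nt for the members and 206 nt over 13036 genes, and the part of its length was not tested.

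**Figure D4:**
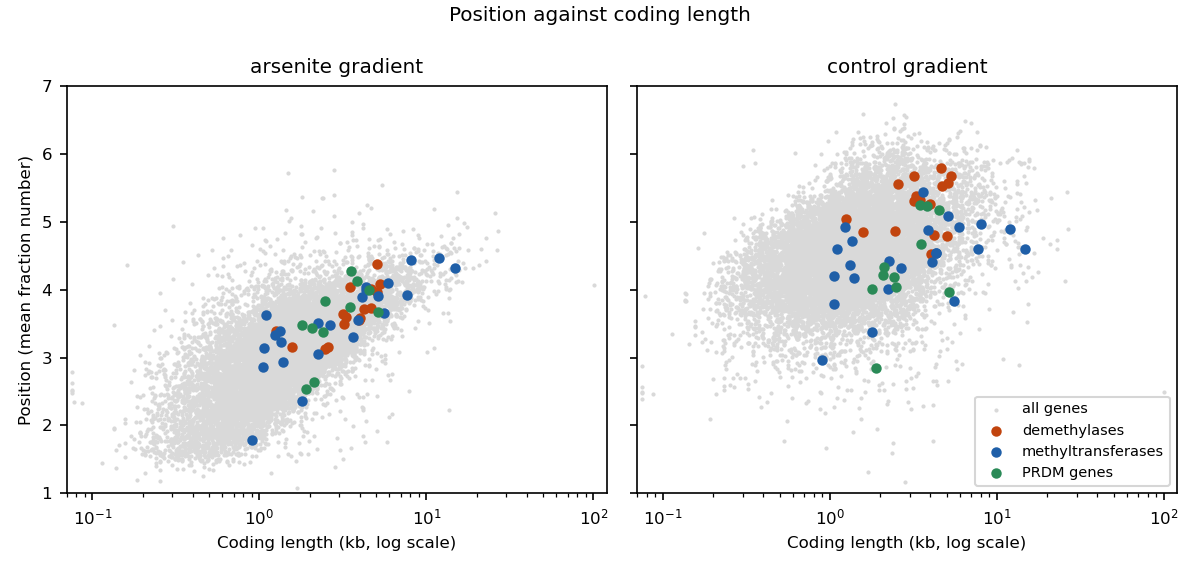
Position (mean fraction number) against coding length (kb, log scale) with arsenite and in the control, for 51 members by class over all annotated genes in grey. With arsenite the members rise along the cloud (Spearman correlation 0.81); in the control the relation is looser (0.41) and 15 of 16 demethylases lie above the median gene.

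Relative shift includes control position as a term, and the Spearman correlation between them was −0.64 over the 53 members and −0.55 over all genes. The 3287 genes with the highest control positions, from 4.96 to 6.74, had a median relative shift of −0.53. They included 11 demethylases, with a median of −0.24, 5 methyltransferases, with 0.40, and 3 PRDM genes, with 0.27. The next 3287 genes, from 4.54, had a median of −0.13. They included 10 methyltransferases, with a median of 0.70, 4 demethylases, with 0.07, and 1 PRDM gene, with 1.06. Genes from 4.14 to 4.54 had a median of 0.19. Among them, 6 methyltransferases had 0.44, 3 PRDM genes 0.64 and 1 demethylase 0.52. The 3287 genes with the lowest control positions, from 1.16 to 4.14, had a median of 0.51, and 1644 of them moved higher. Their 5 methyltransferases had a median of 0.54 and their 4 PRDM genes 1.15, and 7 of these 9 members moved higher. Among the 3263 genes with the longest coding sequences, over 2280 nt, the medians were 0.25 over all of them, −0.23 for 14 demethylases, 0.90 for 13 methyltransferases and 0.64 for 7 PRDM genes. Of those 13 methyltransferases 10 moved higher, as did 2 of the 14 demethylases and 34.1% of all genes of that length.

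Partner subunits and other chromatin enzymes are given for comparison. Of all genes 23.6% moved higher and 24.0% lower. Of 12 COMPASS partners, which work with MLL and SETD1 enzymes, 1 moved higher and 4 lower, with a median relative shift of −0.28. DPY30, a small core subunit, lay at 1.71 with arsenite and 4.41 in the control (−1.25), ASH2L had a relative shift of −0.79, and NCOA6, a large coactivator, moved higher (0.58). Of 9 PRC2 partners none moved higher and RBBP7 moved lower (−1.22), with a median of 0.27. SUZ12 and EED, the core of that complex, had relative shifts of 0.48 and −0.23. Of 8 CoREST partners 1 moved higher and 3 lower, with HDAC1 at −1.08 and HDAC2 at −1.33 beside KDM1A, and PHF21A moved higher (1.02).

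Among lysine methyltransferases that carry other names, the median was 0.36, and 3 of 10 moved higher and 3 lower. ASH1L, an H3K36 enzyme, lay at 3.89 with arsenite and 4.08 in the control (1.26). MECOM, a PRDM relative (0.84), and SETDB2 (0.54) also moved higher. SMYD3 (−1.12), SETMAR (−0.78) and SMYD5 (−0.59) moved lower. The 11 JmjC genes with other names had a median of −0.04. JMJD1C (0.85), PHF2 (0.54) and JHDM1D (0.71) moved higher, and JMJD6 (−0.68), C14orf169 (−0.67) and JMJD4 (−0.56) moved lower. The demethylase class above holds only genes named KDM, so its values do not cover demethylases that carry other names. Arginine methyltransferases had a median of −0.52, and 4 of 7 moved lower, with PRMT1 at 2.11 with arsenite and 5.19 in the control (−1.62). Acetyltransferases had 3 of 10 moved higher and 3 lower (median 0.05), and deacetylases, a list that again holds HDAC1 and HDAC2, 3 of 18 higher and 4 lower (median 0.10). Of 6 genes of DNA methylation the 3 TET enzymes, which oxidise methylcytosine, moved higher, from 1.16 for TET3 and 1.18 for TET2 to 1.55 for TET1. The DNA methyltransferase DNMT3B moved lower (−0.57), and the median of the 6 was 0.63.

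**Figure D5:**
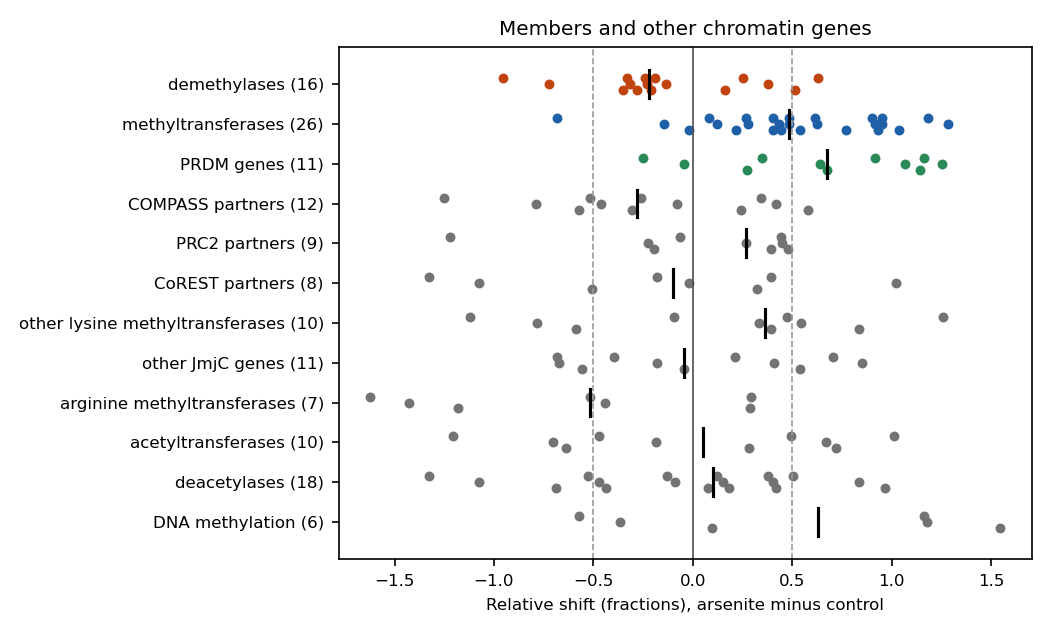
Relative shift (fractions, arsenite minus control) of each gene in the 3 member classes and in 9 lists of other chromatin genes, with the number of genes in brackets, the median as a black bar and dashed lines at 0.5 fractions in either direction. The methyltransferase and PRDM medians (0.48 and 0.68) lie right of 0. So do those of DNA methylation (0.63), other lysine methyltransferases (0.36), PRC2 partners (0.27), deacetylases (0.10) and acetyltransferases (0.05). Those of demethylases (−0.22), COMPASS partners (−0.28), arginine methyltransferases (−0.52), CoREST partners (−0.10) and other JmjC genes (−0.04) lie left of it.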

How the data were processed

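Per the labels' protocols, RNA of the sucrose gradient fractions was prepared with Trizol and the NSR method. The authors deposited 1 table with 1 row per gene. Its 16 library columns are in the unit fraction, the share of a gene's total in each of 8 fractions, and 3 score columns give the mean fraction number per gradient and its difference. The shares summed to 1 within 2.3e-15, and the largest difference between recomputed positions and the deposited scores was 1.5e-14. Values refer to exons of RefSeq genes, per the file headers, and the submitters' processing notes name hg19. Aligner, counting, gene filter, strand and scaling: not given in the sources used here. Depth is unknown, so no interval or floor is given.

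Sample titles gave the groups. Members were selected by symbol, with no value used by the rule, but the members, lists and rules were chosen with earlier results of these data known. Shares are printed in full for 10 members picked by name (KDM1A, KDM5B, KDM6A, MLL, SETD1A, SETD2, EZH2, EHMT2, SUV39H1 and SETD8) and for the highest and lowest relative shift of each role. Other members are named with single values, except that 1 gene is not reported here by name or in the plots that name genes. Other genes are named as members of the 9 lists, with examples chosen after their values were seen.

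Coding lengths and UTRs came from 1 protein-coding transcript per gene in GENCODE release 29, namely the principal isoform, or the longest where the principal one coded for less than 50% of its length. Symbols matched for 13036 genes (99.1%), 719 by an older symbol, and for 51 of 53 members. No coordinates are printed, because GENCODE release 29 uses a different build. Alternatives were median-of-ratios size factors, a pseudocount of 1 percentage point, each fraction left out, the 50% point of each profile, genes with no 0, thresholds of 0.25 and 1 fractions, no rule on sign, the share in fractions 5 to 8, and leaving out the PRDM genes. The medians per class under these settings were added after seeing the data. The rule was tested on simulated profiles. Python 3.11.15, NumPy 2.4.6, pandas 2.3.3 and SciPy 1.17.1 were used.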

Additional observations from a re-analysis of the deposited data

How the results depend on the processing

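No paired analysis was possible because each treatment and fraction has 1 library. A value is said to have moved when it changed by 1.5 times or more. The number of members that moved higher, 21, was between 18 and 27 under every alternative but the threshold of 1 fraction, where it was 7. The number that moved lower, 3, was 6 with size factors, 8 without fraction 5, 1 without fraction 7, 5 at a threshold of 0.25 fractions and 0 at 1. The share of all genes is given only for the main rule and for size factors. The counts under the other settings therefore cannot be set against it. The members' median relative shift, 0.40, was 0.25 with size factors and 0.23 without fraction 1, and stayed positive throughout. That of demethylases, −0.22, was −0.34, −0.081, −0.41 and −0.079 without fractions 1, 3, 5 and 8, and 0.13 without fraction 7, the opposite direction; the cause was not tested. With the 50% point the median was 0.78 for methyltransferases and 1.19 for PRDM genes. On the share in fractions 5 to 8, arsenite minus control and relative to the median gene, the medians were 12.4 percentage points for all members, −1.69 for demethylases, 16.4 for methyltransferases and 14.5 for PRDM genes. Over size factors, the 50% point and each fraction left out, 14 of the 21 higher calls and 1 of the 3 lower calls (KDM1A) were kept in all. How many calls were kept over all genes is not given. Unknown depth and the lack of replicates limit every value.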
